A study of Mus musculus with 400 samples.

Results

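A-type potassium currents of the Kv4 kind are carried by channels built from 3 sorts of gene product: the pore subunits of Kcnd1, Kcnd2 and Kcnd3, the calcium-binding KChIP proteins of Kcnip1, Kcnip2, Kcnip3 and Kcnip4, and the single-pass membrane proteins of Dpp6 and Dpp10. These 9 genes were taken as the set, 9 of 24754 gene rows, and their levels were described across the classes of sensory neuron found in mouse dorsal root ganglia (DRG). As background, A-type currents open below the spike threshold and inactivate quickly, so that they delay firing and space out spikes. KChIPs bind the cytoplasmic end of the pore subunit and, with the Dpp proteins, raise its surface level and set how fast the current inactivates and recovers. Kcnip3 is also known as DREAM, a calcium-dependent repressor of transcription.

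The libraries are single cells from cervical DRG of 6 naive mice aged 6 to 12 weeks, all of 1 condition and strain (labelled Nav1.8-Cre.Ai14). In these mice a Cre recombinase driven by Nav1.8, the sodium channel gene of nociceptors, switches on tdTomato from the R26CAG-floxStop-tdTomato allele, and tdTomato-positive cells were sorted one by one, so that neurons without a history of this promoter are largely missing. Of 394 cells with a column, 371 had at least 500 detected genes. Cells were gated on marker genes outside the set, in CPM (signal scaled to an equal total in every cell): Mrgprd at least 200 (30.5% of the kept cells), Mrgpra3 at least 50 (47 cells), Sst or Nppb at least 100 (46), Th at least 100 (39), Calca at least 2000 with Tac1 at least 1000 (86), and Nefh at least 500 (26). Mrgprd marks non-peptidergic nociceptors, Mrgpra3 and Sst or Nppb mark itch neurons, Th marks low-threshold touch neurons, Calca and Tac1 mark peptidergic nociceptors and Nefh marks myelinated neurons. These gates held 343 cells, of which 14 passed 2 gates, and 28 cells passed none.

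Further markers of each class were checked. All 5 extra markers of the Sst/Nppb gate and all 4 of the Th gate had their highest mean in their own gate, and their sums there were 2320 and 1373 CPM. The 8 markers of the Nefh gate were likewise all highest in it, at a sum of 4047 CPM, although Pvalb and Spp1, which define myelinated subclasses, stood at only 21.6 and 17.3 CPM. The markers of the Mrgprd gate and of the Calca/Tac1 gate were highest in their own gate for 4 of 5 genes each. The Mrgpra3 gate was the least well marked, with 2 of 4 genes highest there, Mrgprb4 at 1.55 CPM and Mrgprx1 at 8.17 CPM. Kept cells had a median of 30366 recovered counts (918 to 324984). Median depth was lowest in the Sst/Nppb gate (16934 counts) and highest in the Nefh gate (67460 counts). Satellite glial markers summed to 3377 CPM in the Nefh gate and to between 430 and 1227 CPM in the other gates. The Schwann cell list was also highest in the Nefh gate, at 700.3 CPM, against 96.6 to 439 CPM elsewhere. Macrophage, endothelial, fibroblast and erythroid lists stayed at or under 64.5 CPM in every gate. The mural list reached 614 CPM in the Th gate, nearly all of it Rgs5 (612 CPM), with Acta2 at 0.0979 and Myh11 at 0 CPM. Of the 26 Nefh-gated cells, 17 came from mouse Control.

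A level below is the mean CPM over mice, from all cells that pass the gate, in mice with at least 3 such cells. This leaves 6 mice for the Mrgprd and Calca/Tac1 gates, 5 for Sst/Nppb, 3 for Mrgpra3 and Nefh and 2 (Blue and Red) for Th. Differences are from limma on log2(CPM + 5) of the means per mouse and gate, from cells of exactly 1 gate. Each gate was set against the mean of the other 5 gates, with the mouse as a term and Benjamini-Hochberg adjustment over the 9169 genes averaging 10 CPM or more. The pseudocount of 5 makes differences of weakly expressed genes smaller. In this fit the Mrgpra3 and Th gates rest on mice Blue and Red alone, and the Nefh gate on 1 mouse, so that no p is given for it. The number of mice with a direction compares a gate with the other fitted gates of the same mouse. Mice Control2 and Control6 have only the Mrgprd and Calca/Tac1 gates in the fit. Their direction therefore compares these 2 gates alone, and the same comparison counts for both gates.

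**Figure D1:**
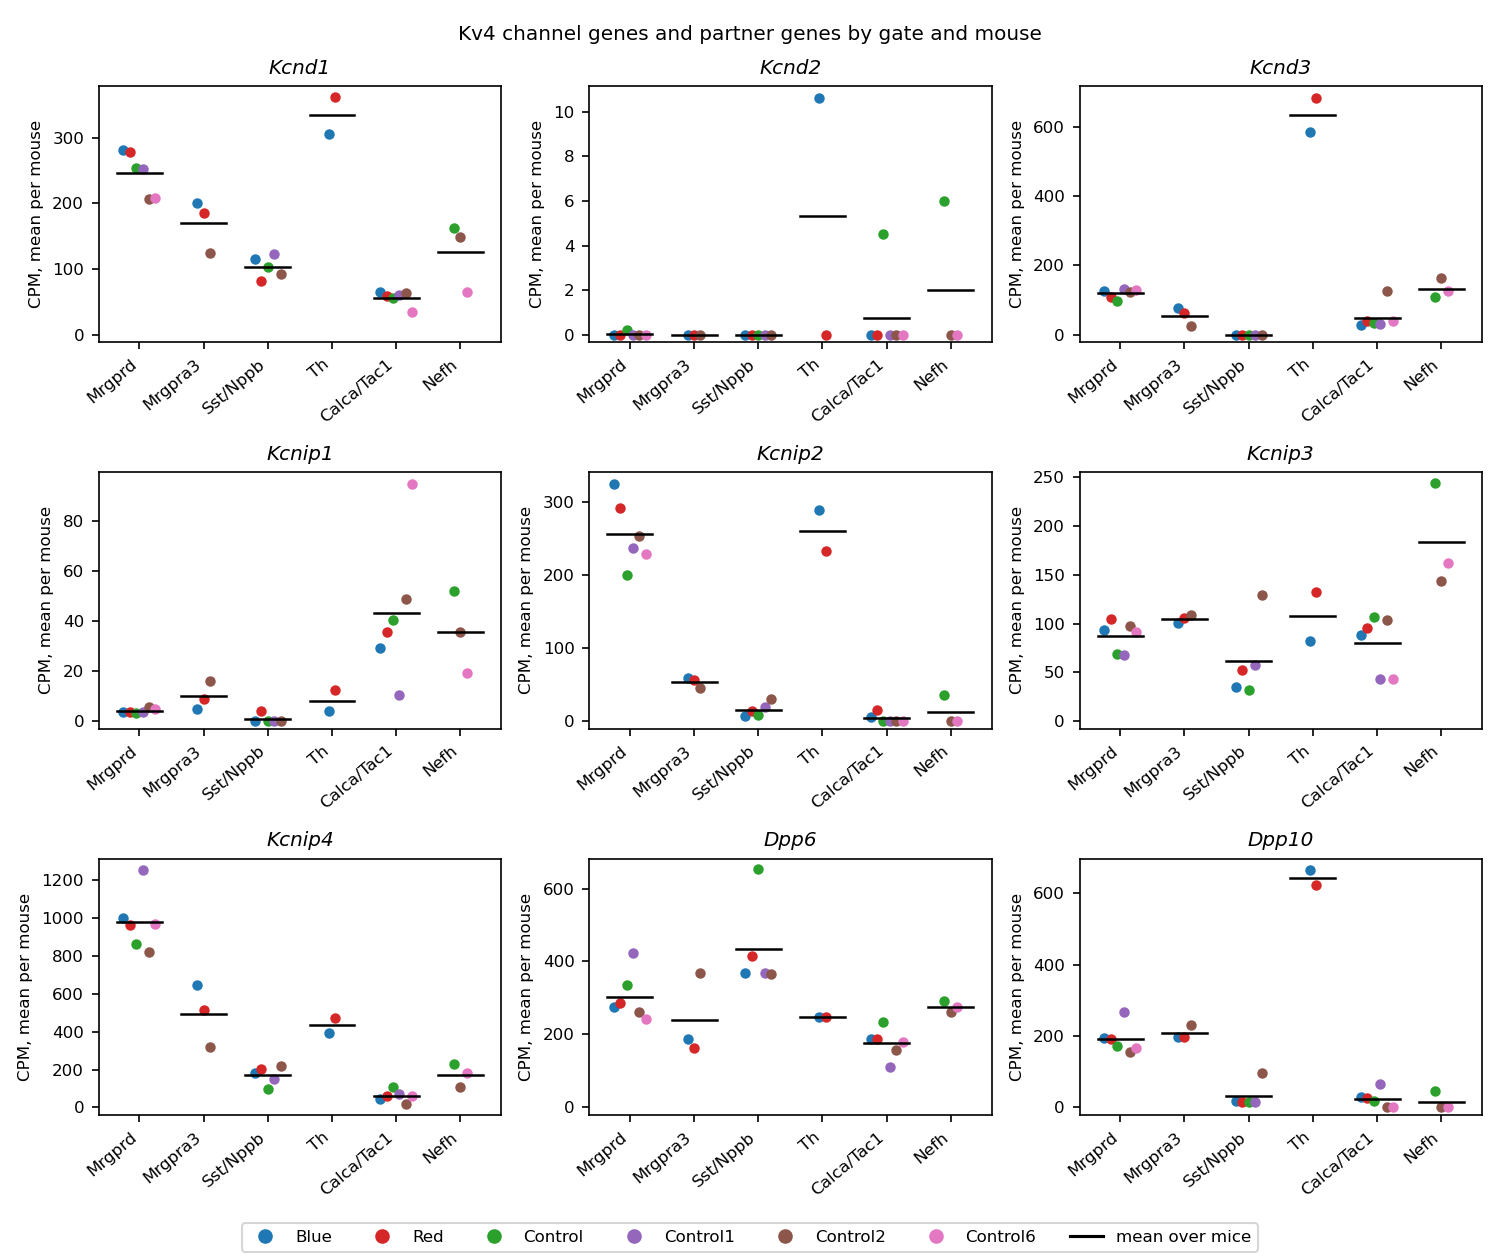
Mean CPM per mouse (points, coloured by mouse) and mean over mice (black lines) of the 9 genes in the 6 gates, each panel with its own linear axis. Kcnd3 and Dpp10 stand highest in the Th gate, Kcnip4 in the Mrgprd gate and Dpp6 in the Sst/Nppb gate, and Kcnd3 lies at 0 in all 5 mice of the Sst/Nppb gate.

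Of the 9 genes, 8 passed the filter on low values, and all 8 differed among the gates by the F test, in a background where 24.5% of tested genes did. Kcnd2 did not pass the filter. Against the other gates, the Th gate had 4 of 8 genes higher and 0 lower, where 3.0% of all tested genes were higher and 3.44% lower. The Mrgprd gate had 4 higher and 1 lower, against a background of 6.71% higher and 5.43% lower. In the Calca/Tac1 gate 1 gene was higher and 6 were lower (background 5.57% and 4.32%). The Sst/Nppb gate had 1 higher and 7 lower, where the background was 6.38% higher and 13% lower. No gene of the set passed the threshold in the Mrgpra3 gate in this fit, and few genes of any kind did there (1.21% higher, 0.927% lower). The median log2 difference of the 8 genes was 1.13 in the Th gate, 0.87 in the Mrgprd gate, 0.16 in the Mrgpra3 gate, -1.41 in the Sst/Nppb gate and -1.48 in the Calca/Tac1 gate. Within sequencing batches, 23 of the 24 calls held in run 1 alone (mice Blue and Red) and 8 of the 20 that could be refitted in runs 2 to 4 alone, and only Kcnip1 in the Mrgprd gate failed in run 1. The other gates differ between these fits, so their values are not directly comparable. Run 1 alone holds no Nefh gate, and runs 2 to 4 alone hold no Th or Mrgpra3 gate. With every cell thinned to 5000 counts, 12 of the 24 calls held. Those lost were Kcnd1 in the Mrgprd, Th and Calca/Tac1 gates, Kcnip1 in the Mrgprd, Sst/Nppb and Calca/Tac1 gates, Kcnip2 in the Th gate, Kcnip3 and Kcnip4 in the Sst/Nppb gate, Dpp6 in the Sst/Nppb and Calca/Tac1 gates and Dpp10 in the Mrgprd gate, with adjusted p between 0.0508 and 0.759. As for depth, the Sst/Nppb gate, which has the most lower calls, is also the shallowest. Over all tested genes these medians lay between -0.17 (Sst/Nppb) and 0.09 (Mrgprd).

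**Figure D2:**
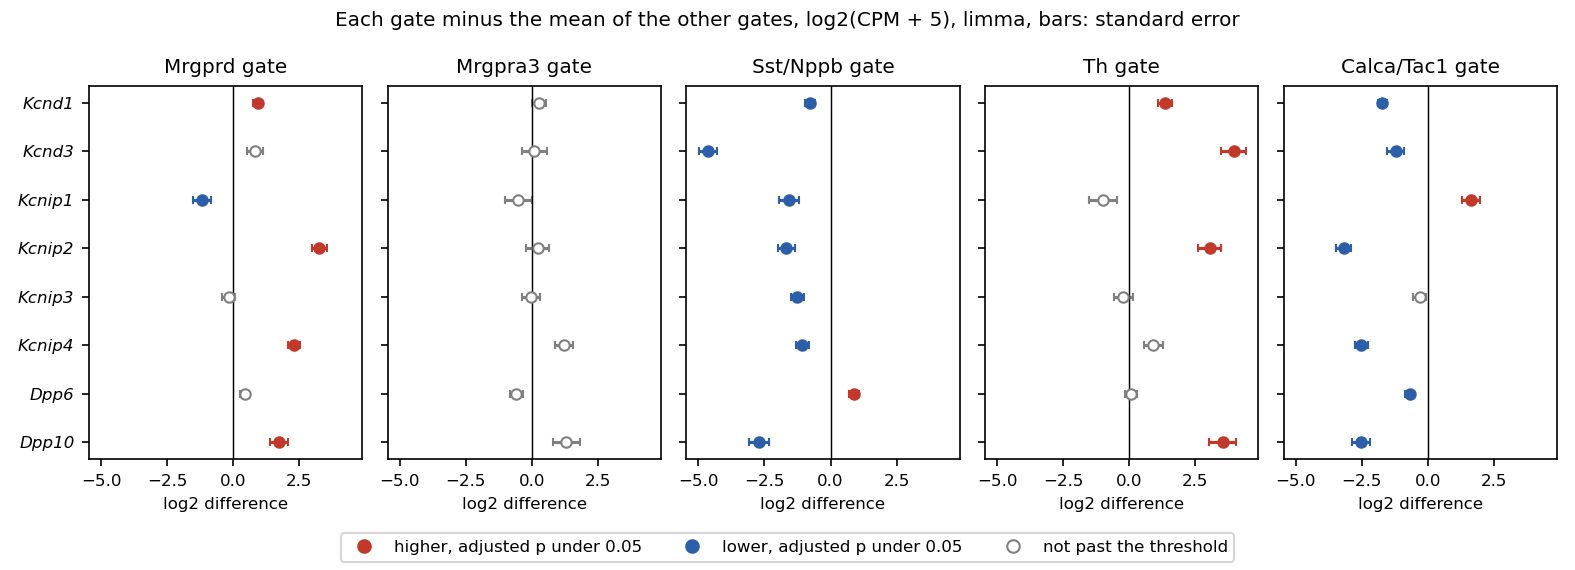
Log2 difference of each gate from the mean of the other gates (points, on log2(CPM + 5)) with its standard error (bars) for the 8 tested genes, red where higher, blue where lower and open where the adjusted p did not pass 0.05. The Th and Sst/Nppb panels lie on opposite sides of 0 for Kcnd1, Kcnd3, Kcnip2 and Dpp10, and Dpp6 is the 1 gene to the right of 0 in the Sst/Nppb panel.

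Kcnd3, which encodes a pore subunit, ran between 0 in the Sst/Nppb gate and its highest level in the Th gate. It lies at chr3:105452330-105674002 on the plus strand (GENCODE vM21, GRCm38, the mm10 build). Its mean was 585 CPM in the Th cells of mouse Blue and 683 CPM in those of mouse Red. In the Nefh gate the 3 mice had 109.4, 125.4 and 162 CPM. The Mrgprd gate had a lowest value of 96.99, a median of 124.3 and a highest of 133 CPM over 6 mice. The Th values lie far above those of every other gate, and the Nefh and Mrgprd ranges overlap. Mrgpra3-gated cells had 24.3, 63.2 and 76.3 CPM. The Calca/Tac1 gate had 28.01, 36.9 and 124.9 CPM (lowest, median, highest), and its highest mouse, Control2, had 4 such cells. No count of Kcnd3 was recovered in any of the 46 Sst/Nppb-gated cells, in 887251 counts. This allows a share of cells with a count of up to 6.52% and a level of up to 3.38 CPM over the gate, counting error alone; it does not bound the share of cells that express the gene below the reach of their depth. The mean over mice of Kcnd3 was 188-fold that limit in the Th gate and 14.6-fold in the Calca/Tac1 gate. These folds divide a mean over mice by a limit over pooled counts. They leave out the spread over mice and are not lower bounds. Over pooled counts the level was 642 CPM in the Th gate and 43.6 CPM in the Calca/Tac1 gate.

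By limma, Kcnd3 was higher in the Th gate than in the other gates by 3.95 ± 0.46 (log2, SE, adjusted p = 1.11e-05, higher in 2 of 2 mice). It was lower in the Sst/Nppb gate by -4.65 ± 0.34 (adjusted p = 9.41e-09, 4 of 4 mice), a size that depends on the pseudocount because that gate is at 0. In the Calca/Tac1 gate the difference was -1.22 ± 0.31 (adjusted p = 0.0125, lower in 5 of 6 mice). This last call was lost without mouse Blue (-1.21, adjusted p = 0.21) and without mouse Red (-1.15, adjusted p = 0.25). In runs 2 to 4 alone, which lack the Th and Mrgpra3 gates, it was -0.11 (adjusted p = 0.98). In run 1 alone, which lacks the Nefh gate, it was -1.27 (adjusted p = 4.88e-05). The first 2 differences passed under every alternative in which they could be fitted. The Th difference could not be fitted in runs 2 to 4 alone, and its highest adjusted p was 0.0485, after thinning. The Mrgprd gate did not pass (0.81 ± 0.31, adjusted p = 0.104). It passed in run 1 alone (1.21, adjusted p = 9.24e-05) and without the Nefh gate (1.06, adjusted p = 0.031). It did not pass in runs 2 to 4 alone (1.97, adjusted p = 0.071) or after thinning (0.99, adjusted p = 0.529). Kcnd3 shares its locus with the antisense gene Kcnd3os, and since no source used here states the strand of counting, reads of these 2 genes may not be told apart.

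Kcnd1, the only pore gene detected in every gate, lies at chrX:7822289-7838280 on the plus strand, a stretch of 15.99 kb that overlaps no other annotated gene. Its levels, in descending order, were Th (306 and 363 CPM), Mrgprd (207, 253 and 282 CPM; lowest, median, highest) and Mrgpra3 (124.6, 185 and 201 CPM). After these came Nefh (65.1, 148 and 163 CPM), Sst/Nppb (81.96, 91.999, 103.9, 114.96 and 122.97 CPM) and Calca/Tac1 (35.4, 60.2 and 65.5 CPM). Ranges of neighbouring gates did not overlap except between Mrgpra3 and Nefh and between Nefh and Sst/Nppb. Kcnd1 was thus graded where Kcnd3 had a gate at 0. Against the other gates it was higher in the Th gate by 1.34 ± 0.26 (adjusted p = 0.00285) and in the Mrgprd gate by 0.93 ± 0.18 (adjusted p = 0.00101). It was lower in the Sst/Nppb gate (-0.77 ± 0.19, adjusted p = 0.0078) and in the Calca/Tac1 gate (-1.73 ± 0.18, adjusted p = 1.39e-06). Each of these directions held in all the mice of the gate. The Th, Mrgprd and Sst/Nppb calls were lost without Blue (1.56, 0.90 and -0.84, adjusted p = 0.211, 0.0687 and 0.103) and without Red (1.13, 0.94 and -0.64, adjusted p = 0.652, 0.0505 and 0.222). In runs 2 to 4 alone the Sst/Nppb difference was -0.31 (adjusted p = 0.747). After thinning, the Mrgprd (0.68, adjusted p = 0.433), Th (1.74, adjusted p = 0.159) and Calca/Tac1 (-1.32, adjusted p = 0.0508) calls were lost. Without Blue or Red the Th gate keeps 1 mouse, whose spread is assumed to be that of the other gates.

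Kcnd2, the pore gene known as the main Kv4 subunit of many brain neurons, was hardly detected in these cells. It lies at chr6:21215503-21729805 on the plus strand. Its level was 10.6 CPM in Th cells of mouse Blue and 0 in those of mouse Red, and the Nefh gate had 0, 0 and 5.99 CPM. Counts were recovered in 4 of 39 Th-gated cells, 6 of 26 Nefh-gated cells, 1 Mrgprd-gated cell (0.885%) and 1 of 86 Calca/Tac1-gated cells, and in none of the 47 Mrgpra3-gated and 46 Sst/Nppb-gated cells. At these counts no order of the gates can be read.

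Levels of different genes can be compared only per length, and CPM were therefore divided by the merged exon length. Per kb, Kcnd1 was 63.2 and Kcnd3 66.2 CPM per kb in the Th gate, so that each made up close to the same share of pore transcripts (48.5% and 50.7%). Kcnd1 dominated elsewhere, with 78.9% of pore transcripts in the Mrgprd gate, 84.98% in the Mrgpra3 gate, 66.8% in the Calca/Tac1 gate and 62.6% in the Nefh gate. It was the only pore gene with counts in the Sst/Nppb gate. Kcnd2 did not exceed 1.02% of the family in any gate. These shares assume that reads fall along the whole merged exon, a point that no source used here states. Without the division by length, Kcnd3 held 65.1% and Kcnd1 34.3% of the pore CPM in the Th gate, 50.96% and 48.3% in the Nefh gate, and 46.3% and 52.97% in the Calca/Tac1 gate, so that the order of both genes in the Nefh gate depends on it.

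Among the KChIP genes, Kcnip4 was the most abundant per length in the Mrgprd, Mrgpra3, Sst/Nppb and Th gates. It is a very long gene of 1135 kb (chr5:48389502-49524907, minus strand). The Mrgprd gate had 819, 968 and 1254 CPM (lowest, median, highest of 6 mice). Next came Mrgpra3 (317, 513 and 648 CPM) and Th (393 and 475 CPM), whose ranges overlap, and then Nefh (109.2, 181 and 230.3 CPM) and Sst/Nppb (96.04, 149, 182, 203 and 219 CPM). The Calca/Tac1 gate was lowest, with 20.0, 58.8 and 107.96 CPM. All 6 Mrgprd values lie above every value of the other gates. Kcnip4 was higher in the Mrgprd gate by 2.29 ± 0.24 (adjusted p = 1.28e-06, 6 of 6 mice) and lower in the Calca/Tac1 gate by -2.52 ± 0.24 (adjusted p = 5.22e-07, 6 of 6 mice). Both calls held under every alternative. In the Sst/Nppb gate it was lower by -1.07 ± 0.26 (adjusted p = 0.00654, 4 of 4 mice), a call lost without mouse Blue (-1.18, adjusted p = 0.0503), in runs 2 to 4 alone (-1.13, adjusted p = 0.13) and after thinning (-0.99, adjusted p = 0.196). Mrgpra3 (1.22 ± 0.36, adjusted p = 0.0982) and Th (0.92 ± 0.36, adjusted p = 0.17) did not pass. Both passed in run 1 alone (1.09, adjusted p = 2.72e-06, and 0.78, adjusted p = 3.28e-05). Neither passed when the Nefh gate was left out of the fit (1.09, adjusted p = 0.124, and 0.78, adjusted p = 0.221). These outcomes thus depend on the fit. Of the genes that overlap Kcnip4, 1 is in the tables, 5730480H06Rik, on the opposite strand.

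Kcnip2 was high in the Th and Mrgprd gates, intermediate in the Mrgpra3 gate and low in the others. This gene encodes KChIP2, best known as the KChIP of heart muscle, and lies at chr19:45791839-45816061 on the minus strand. It had 232 and 289 CPM in the Th gate and 199.7, 246 and 325 CPM (lowest, median, highest) in the Mrgprd gate, 2 ranges that overlap. Mrgpra3-gated cells had 45.7, 56.6 and 59.4 CPM and Sst/Nppb-gated cells 6.95, 7.84, 13.2, 19.4 and 29.98 CPM. In the Calca/Tac1 gate 4 of 6 mice were at 0 and the highest was 15.4 CPM, and in the Nefh gate the values were 0, 0 and 35.4 CPM. The Th and Mrgprd gates thus stand clear of the other 4. Kcnip2 was higher by 3.26 ± 0.29 in the Mrgprd gate (adjusted p = 1.72e-07, 6 of 6 mice) and by 3.04 ± 0.43 in the Th gate (adjusted p = 0.000109, 2 of 2 mice). It was lower by -3.18 ± 0.29 in the Calca/Tac1 gate (adjusted p = 3.41e-07, 6 of 6 mice) and by -1.68 ± 0.32 in the Sst/Nppb gate (adjusted p = 0.00081, 4 of 4 mice). The Mrgprd and Calca/Tac1 calls held under every alternative. The Th call was lost without Blue (2.76, adjusted p = 0.129) and without Red (3.32, adjusted p = 0.0706). The Sst/Nppb call was lost in the same fits (-1.38, adjusted p = 0.0919, and -1.71, adjusted p = 0.0514), and in runs 2 to 4 alone it was -0.51 (adjusted p = 0.76).

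Kcnip1 ran the other way. It encodes KChIP1, known from inhibitory neurons of the brain, and lies at chr11:33629339-33993152 on the minus strand, where it overlaps Kcnmb1, a gene of the tables on the opposite strand. Calca/Tac1-gated cells had 10.3, 38.1 and 94.9 CPM (lowest, median, highest of 6 mice) and Nefh-gated cells 19.2, 35.5 and 51.98 CPM. The other gates were low, with 4.90, 8.79 and 16.1 CPM in the Mrgpra3 gate, 4.17 and 12.3 CPM in the Th gate and at most 5.59 CPM in any mouse of the Mrgprd gate. In the Sst/Nppb gate 1 of 46 cells had a count. Kcnip1 was higher in the Calca/Tac1 gate by 1.62 ± 0.35 (adjusted p = 0.00362, 6 of 6 mice) and lower in the Sst/Nppb gate by -1.57 ± 0.38 (adjusted p = 0.00645, 4 of 4 mice) and in the Mrgprd gate by -1.19 ± 0.35 (adjusted p = 0.0289, 6 of 6 mice). The Mrgprd call passed under only 9 of 25 alternatives, among them neither run 1 alone (-0.58, adjusted p = 0.186) nor runs 2 to 4 alone (-1.78, adjusted p = 0.241), and not without Blue (-1.34), Red (-1.07), Control (-0.71) or Control6 (-1.02). The Calca/Tac1 call was lost without Blue (1.56, adjusted p = 0.157) and without Red (1.76, adjusted p = 0.101), and it was 1.49 (adjusted p = 0.507) in runs 2 to 4 alone. The Sst/Nppb call was lost without Blue (-1.55), Red (-1.62) or Control (-0.97), with adjusted p between 0.124 and 0.143. Both lower calls were also lost when the Nefh gate was left out of the fit. The Mrgprd difference was then -0.69 (adjusted p = 0.259) and the Sst/Nppb difference -1.08 (adjusted p = 0.0587). Run 1 alone and the fit without Control hold no Nefh gate either. Satellite glial markers were also higher in the Calca/Tac1 gate (1227 CPM) and the Nefh gate than elsewhere. Among cells with less than 500 CPM of the glial genes Apoe and Fabp7, Kcnip1 was 47.2 ± 47.1 CPM (SD, n = 4 mice) in the Calca/Tac1 gate and 1.1 to 6.09 CPM in the Mrgprd, Mrgpra3, Sst/Nppb and Th gates. Only 5 Nefh-gated cells remained, with a mean of 9.36 CPM over cells, against 44.6 CPM over all 26.

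Kcnip3 was the most even of the KChIP genes. It lies at chr2:127456498-127522094 on the minus strand. The Nefh gate was highest, with 144, 163 and 245 CPM, above all mice of the Th gate (82.03 and 133 CPM). Satellite glial markers were highest in the Nefh gate too, and their part in this level was not tested. The next levels were 100.2, 105.8 and 108.6 CPM in the Mrgpra3 gate, 67.5, 92.6 and 104.6 CPM (lowest, median, highest) in the Mrgprd gate, and 43.1, 91.6 and 106.6 CPM in the Calca/Tac1 gate. Sst/Nppb-gated cells had 32.2, 35.5, 52.04, 57.1 and 129 CPM. Every pair of neighbours below the Nefh gate overlaps. The F test gave the largest adjusted p of the 8 genes for Kcnip3 (0.00734), and 1 gate passed, Sst/Nppb, by -1.25 ± 0.25 (adjusted p = 0.00154, lower in 3 of 4 mice). That call was lost without Blue (-1.18, adjusted p = 0.0665), Red (-1.21, adjusted p = 0.0722) or Control (-0.77, adjusted p = 0.0547). It was also lost without cells rich in glial RNA (-0.76, adjusted p = 0.055), where 5 Nefh-gated cells remained and had a mean of 141 CPM over cells.

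**Figure D3:**
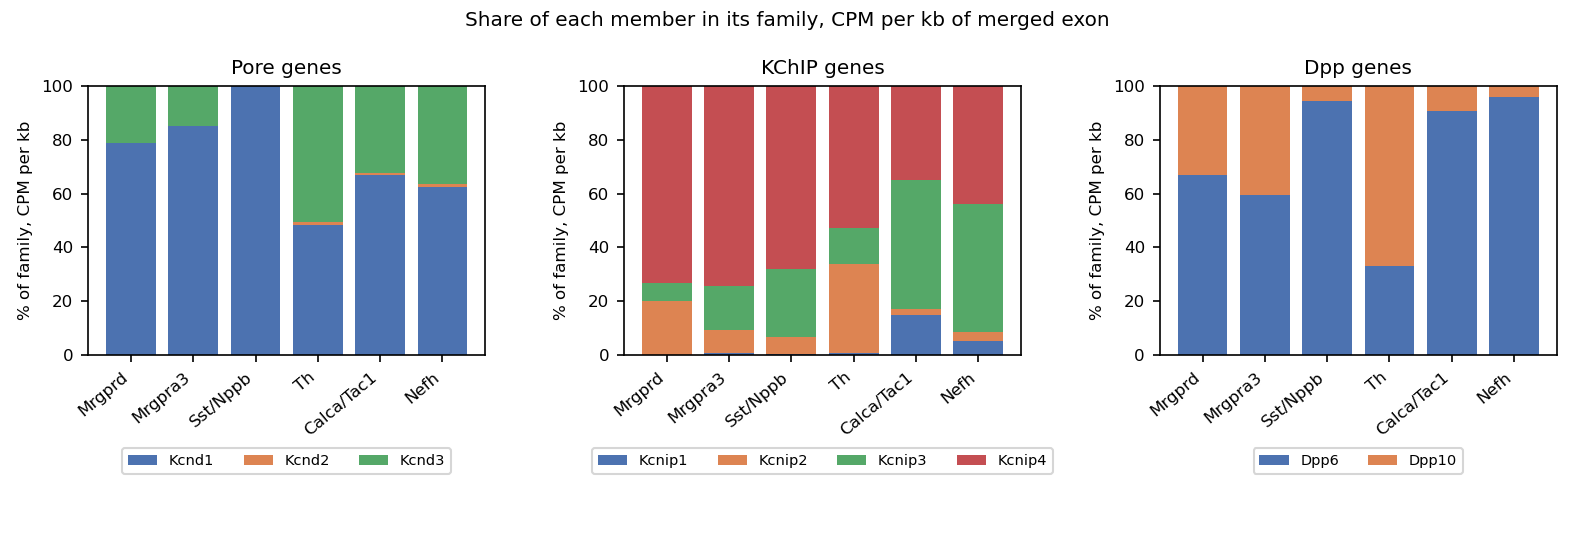
Share of each gene in its family (stacked bars, percent of the summed CPM per kb of merged exon) for pore, KChIP and Dpp genes in the 6 gates, from means over mice. Kcnd3 takes 50.7% of the pore bar and Dpp10 66.98% of the Dpp bar in the Th gate, and Kcnip3 takes 47.9% of the KChIP bar in the Calca/Tac1 gate, where Kcnip4 has 35.1%.

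Per kb, Kcnip4 made up 73.2% of KChIP transcripts in the Mrgprd gate, 74.4% in the Mrgpra3 gate, 68.2% in the Sst/Nppb gate and 52.9% in the Th gate. Kcnip2 came second in the Th gate (33.2%) and the Mrgprd gate (19.98%). In the Calca/Tac1 and Nefh gates Kcnip3 led with 47.9% and 47.6%, and Kcnip1 reached 14.8% of the Calca/Tac1 total. The summed KChIP level in that gate was low, with 22.6 CPM per kb for Kcnip3 and 16.5 for Kcnip4, against 269.8 CPM per kb for Kcnip4 in the Mrgprd gate.

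Dpp6 and Dpp10, the DPPX and DPPY proteins, resemble dipeptidyl peptidases but lack the enzyme's activity. Dpp10 lies at chr1:123321471-124045559 on the minus strand. It had 623 and 663 CPM in the Th gate, 196, 198 and 229 CPM in the Mrgpra3 gate, and 155, 182 and 268 CPM (lowest, median, highest) in the Mrgprd gate. The last 2 ranges overlap and lie far below Th. The Sst/Nppb gate had 14.7, 15.96, 16.4, 17.5 and 97.01 CPM, the Calca/Tac1 gate 0, 21.96 and 66.5 CPM (lowest, median, highest), and the Nefh gate 0, 0 and 46.7 CPM. Dpp10 was higher in the Th gate by 3.54 ± 0.51 (adjusted p = 0.000134, 2 of 2 mice). It was lower in the Sst/Nppb gate by -2.70 ± 0.37 (adjusted p = 3.45e-05, 4 of 4 mice) and in the Calca/Tac1 gate by -2.52 ± 0.34 (adjusted p = 4.51e-05, 6 of 6 mice). In the Mrgprd gate it was higher by 1.74 ± 0.34 on the log2 scale (adjusted p = 0.00135), although its plain mean CPM in the fitted cells was 193 there, against 197 over the other gates, which the Th level lifts, and 4 of 6 mice showed the direction. The Th call was lost without Blue (3.6, adjusted p = 0.0539) and without Red (3.47, adjusted p = 0.0881). Runs 2 to 4 alone gave -1.87 (adjusted p = 0.18) for the Sst/Nppb gate and -1.55 (adjusted p = 0.378) for the Calca/Tac1 gate.

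Dpp6 (chr5:26817203-27727505, plus strand) was present in every gate at more even levels, and it was the 1 gene of the set that was highest in the Sst/Nppb gate. That gate had 366, 369.3, 369.8, 415 and 655 CPM. The Mrgprd gate had 242, 280.1 and 423 CPM (lowest, median, highest), the Nefh gate 261, 276 and 292 CPM, the Th gate 248 CPM in each mouse and the Mrgpra3 gate 162, 187 and 367 CPM. Calca/Tac1-gated cells were lowest, with 109.7, 183 and 234 CPM. Most neighbouring ranges overlap, and the exception is Nefh above Th. Dpp6 was higher in the Sst/Nppb gate by 0.89 ± 0.18 (adjusted p = 0.00146, 4 of 4 mice) and lower in the Calca/Tac1 gate by -0.69 ± 0.16 (adjusted p = 0.00737, 6 of 6 mice). In runs 2 to 4 alone neither passed (0.91, adjusted p = 0.144, and -1.07, adjusted p = 0.0882), nor after thinning (0.69, adjusted p = 0.265, and -0.72, adjusted p = 0.272). The first call was lost without Red (0.86, adjusted p = 0.0591), and the second without Red (-0.77, adjusted p = 0.0992) or Blue (-0.73, adjusted p = 0.111). Per kb, Dpp10 made up 66.98% of the Dpp transcripts in the Th gate, 40.5% in the Mrgpra3 gate, 33.02% in the Mrgprd gate and 9.37% or less in the Calca/Tac1, Sst/Nppb and Nefh gates. Dpp6 overlaps Speer4b, a gene of the tables on the opposite strand.

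Kcnd3, Kcnip2 and Dpp10 were each called higher in the Th gate and lower in both the Sst/Nppb and the Calca/Tac1 gate, and the 250 bases before their starts are shown for that reason. Kcnd1 had the same 3 calls but has no promoter in the source used. The windows come from the RefSeq promoter table (GRCm38.p6), which held 15 promoters of 8 of the 9 genes. Its starts can differ from the GENCODE positions given above. The Kcnd3 window ends at 105451889, upstream of the GENCODE start at 105452330. Capitals mark the E-box CANNTG and the GC box GGGCGG, searched on both strands, so that CCGCCC is the GC box read backwards; the 2 motifs do not overlap here.
Kcnd3 promoter, chr3:105451640-105451889, plus strand: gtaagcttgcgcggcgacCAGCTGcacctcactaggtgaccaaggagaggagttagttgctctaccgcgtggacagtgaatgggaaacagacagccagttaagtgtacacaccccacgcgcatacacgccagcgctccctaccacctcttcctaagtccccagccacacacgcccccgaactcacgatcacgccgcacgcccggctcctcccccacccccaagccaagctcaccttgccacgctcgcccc
Kcnip2 promoter, chr19:45816064-45816313, minus strand: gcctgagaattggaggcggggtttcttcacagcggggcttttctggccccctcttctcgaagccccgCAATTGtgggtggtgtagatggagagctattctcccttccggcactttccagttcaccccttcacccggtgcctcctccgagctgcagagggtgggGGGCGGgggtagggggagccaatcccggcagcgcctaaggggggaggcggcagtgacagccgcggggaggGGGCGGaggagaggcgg
Dpp10 promoter, chr1:124045560-124045809, minus strand: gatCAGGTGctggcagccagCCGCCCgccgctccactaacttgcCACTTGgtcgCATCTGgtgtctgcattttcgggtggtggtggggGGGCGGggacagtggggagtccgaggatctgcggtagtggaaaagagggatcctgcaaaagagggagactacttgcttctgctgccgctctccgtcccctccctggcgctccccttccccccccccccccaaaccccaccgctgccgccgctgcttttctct
The Kcnd3 window holds 1 E-box and 0 GC boxes, the Kcnip2 window 1 E-box and 2 GC boxes, and the Dpp10 window 3 E-boxes and 2 GC boxes. E-boxes occur in 66.2% and GC boxes in 32.7% of the 32851 promoter windows of the same length. TGTGGT is a form of the core bound by RUNX factors such as Runx1, which is known for its part in non-peptidergic and Th neurons. It has 0 matches in the 3 windows and is found in 14.05% of all. Other forms of this core, such as TGCGGT, were not searched, so a lack of RUNX cores cannot be read from this. The GC content of the 3 windows is 62.8% (Kcnd3), 66.8% (Kcnip2) and 65.2% (Dpp10), and the median of all is 52.4%. They hold 18, 15 and 14 CpG dinucleotides, where the median window has 6. These are descriptions of sequence and do not show a binding site.

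In single cells the combination of these genes followed the gates. Kcnd3, Kcnip4 and Dpp10 were all detected in 34 of 39 Th-gated cells (87.2%), 93.8% of Mrgprd-gated cells and 39 of 47 Mrgpra3-gated cells. The same 3 genes were found together in 10 of 86 Calca/Tac1-gated cells, 9 of 26 Nefh-gated cells and 0 of 46 Sst/Nppb-gated cells. Depth differs between gates, so cells were also thinned to 5000 counts each, which left 361 cells. After thinning the 3 genes were detected together in 30 of 39 Th-gated cells (76.9%), 25.2% of Mrgprd-gated cells and 6 of 46 Mrgpra3-gated cells, and in 1 of 86, 0 of 25 and 0 of 45 cells of the Calca/Tac1, Nefh and Sst/Nppb gates. Single genes behaved alike. Kcnip2 was detected in 96.5% of Mrgprd-gated cells and 87.2% of Th-gated cells, against 9.3% of Calca/Tac1-gated cells, and after thinning in 74.8%, 64.1% and 2.33%. Dpp10 was detected in 87.2% of Th-gated cells and 34.8% of Sst/Nppb-gated cells (84.6% and 6.67% after thinning). Dpp6 was detected in at least 88.4% of the cells of every gate, and in 52.3% to 82.2% after thinning. For comparison, Kcnd3 was detected in 0 of 46 Sst/Nppb-gated cells.

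From cell to cell within a gate, Spearman's rho ran between -0.48 (Dpp6 and Dpp10, 26 Nefh-gated cells) and 0.73 (Kcnip2 and Kcnip4, 47 Mrgpra3-gated cells) over the 7 pairs of genes examined. Over the 39 Th-gated cells it was 0.52 between Kcnd3 and Kcnip2, 0.31 between Kcnd1 and Kcnd3 and 0.27 between Kcnd3 and Dpp10. Over the Mrgprd-gated cells the same pairs gave 0.20, 0.03 and 0.17. Kcnip2 and Kcnip4 had 0.63 in the Nefh gate and 0.0022 in the Mrgprd gate. Kcnd1 and Kcnip4 had 0.47 in the Nefh gate and 0.42 in the Mrgpra3 gate. Cells of a gate share mice, and a cell's depth enters both values, so these figures are descriptions. The Th gate also holds 5 cells poor in Th-class markers (described below), with 0 CPM of Kcnip2 and at most 177 CPM of Kcnd3. Its other 34 cells had at least 69.5 and 302 CPM. The Nefh gate shares 3 cells with the Mrgprd gate, and Kcnip2 was detected in 6 of its 26 cells. The part of such mixing in these values was not tested.

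The Th gate itself was mixed, and this touches its levels. Of its 39 cells, 34 held between 1035 and 2268 CPM of 4 further Th-class markers (Slc17a8, Fam19a4, P2ry1 and Cckar), and 5 held between 0 and 106.1 CPM. The dividing value of 200 CPM was chosen after the values were seen, and no test was made. Kcnd3, Kcnip2, Kcnip4 and Dpp10 were all detected in 34 of the 34 marker-rich cells and in 0 of the 5 marker-poor ones. In marker-rich cells Kcnd3 ran between 302 and 1212 CPM (median 713) and Dpp10 between 342 and 1328 CPM (median 714). In the marker-poor cells Kcnd3 was at most 177 CPM, and Kcnip2 and Dpp10 were at 0 in all 5. Of those 5 cells 4 passed a second gate, so that the limma fit, on cells of exactly 1 gate, holds 1 of them. The Nefh gate was passed by 3 of the 5. Satellite glial markers had a median of 1737 CPM in the marker-poor cells and 187 CPM in the marker-rich cells. The part of glial RNA in these levels was not tested.

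**Figure D4:**
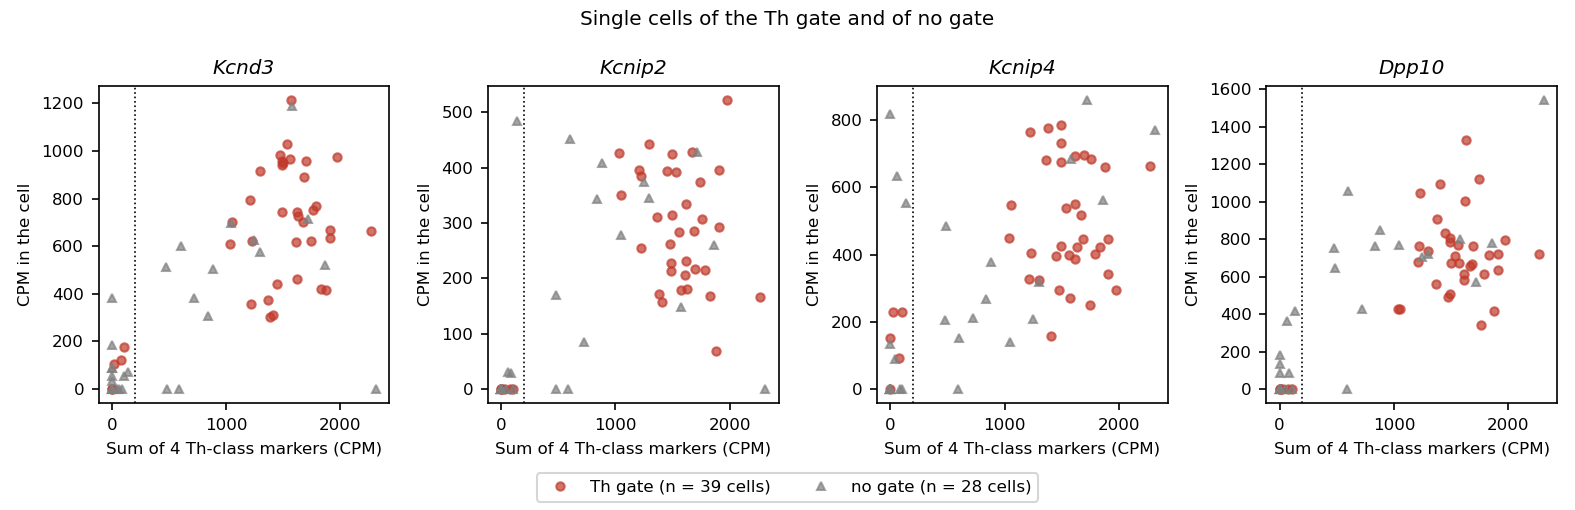
CPM of 4 genes in single cells of the Th gate (red circles) and of no gate (grey triangles) against the summed CPM of 4 Th-class markers other than Th, linear axes, dotted line at 200 CPM. The 34 marker-rich cells of the Th gate all have counts of the 4 genes, the 5 marker-poor ones lie at 0 for Kcnip2 and Dpp10, and 14 ungated cells lie right of the line.

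The 28 cells of no gate divided in a like manner. Of them 14 held at least 200 CPM of the Th-class markers, although Th itself was at most 89.2 CPM there. Dpp10 was detected in 13 of these 14 cells, with a median of 756.5 CPM, and Kcnd3 in 11, with a median of 516 CPM. In the 14 other ungated cells the medians were 0 CPM for Dpp10 and 43.3 CPM for Kcnd3. Median depth was 23314 counts in the marker-rich ungated cells and 16246 in the other ungated cells. It was 30366 over all kept cells, 19859 in the Calca/Tac1 gate and 16934 in the Sst/Nppb gate.

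Other genes of A-type currents were taken as a list of 6 pore and beta subunits outside the Kv4 group. Of these 5 passed the filter, and 4 differed among the gates by the F test, as did 24.5% of all tested genes. The 4 that differed were each lower in the Sst/Nppb gate, where 13% of all tested genes were and where cells were shallowest. Kcnab1 encodes a beta subunit that speeds inactivation. Its level was 347 CPM in the Mrgprd gate, 154 CPM in the Th gate, 91.8 CPM in the Nefh gate, 13.4 CPM in the Calca/Tac1 gate, 1.94 CPM in the Sst/Nppb gate and 0 in the Mrgpra3 gate. It was higher in the Mrgprd gate by 3.85 ± 0.43 (adjusted p = 3.45e-06) and in the Th gate by 2.76 ± 0.65 (adjusted p = 0.0119). It was lower in the Calca/Tac1 gate by -1.79 ± 0.43 (adjusted p = 0.00922), in the Sst/Nppb gate by -2.93 ± 0.47 (adjusted p = 0.000188) and in the Mrgpra3 gate by -3.29 ± 0.65 (adjusted p = 0.00774). Kcnc4, a pore gene of the Kv3 family that gives fast inactivating currents, was 164 CPM in the Calca/Tac1 gate and 0 in the Mrgpra3 gate. It was higher in the Calca/Tac1 gate by 2.34 ± 0.45 (adjusted p = 0.00153, 5 of 6 mice) and in the Mrgprd gate by 1.42 ± 0.45 (adjusted p = 0.0465, 3 of 6 mice). In the Mrgpra3 gate it was lower by -3.48 ± 0.68 (adjusted p = 0.00715), and in the Sst/Nppb gate by -2.56 ± 0.50 (adjusted p = 0.00107). Kcnab2 was highest in the Th gate, at 703 CPM, and was higher there by 0.76 ± 0.22 (adjusted p = 0.04). In the Mrgprd gate it was lower by -0.53 ± 0.14 (adjusted p = 0.0186), and in the Sst/Nppb gate by -1.16 ± 0.16 (adjusted p = 2.78e-05). Kcna4, the A-type pore gene of the Kv1 family, was lower in the Sst/Nppb gate by -1.56 ± 0.28 (adjusted p = 0.000558) and passed in no other gate.

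Relatives of the partner proteins behaved differently by list. Of 7 peptidase relatives of Dpp6 and Dpp10, 5 were tested and 0 differed among the gates by the F test, and Dpp9 alone was lower in a gate, Sst/Nppb, by -1.01 ± 0.31 (adjusted p = 0.0264). Of 7 neuronal calcium sensor relatives of the KChIPs, 4 were tested and 3 differed. Among all tested genes, 24.5% differed by the F test. Hpcal1, which encodes a visinin-like calcium sensor, had 951 CPM in the Sst/Nppb gate and 5.55 CPM in the Mrgprd gate. It was lower in the Mrgprd gate by -5.62 ± 0.18 (adjusted p = 1.91e-13, 6 of 6 mice) and higher in the Sst/Nppb gate by 2.87 ± 0.20 (adjusted p = 7.05e-09, 4 of 4 mice). In the Mrgpra3 gate it was higher by 1.2 ± 0.28 on the log2 scale (adjusted p = 0.0255), but its plain mean lay above that of the other gates in 0 of 2 mice. Hpca, the gene of hippocalcin, was higher in the Th gate by 2.88 ± 0.74 (adjusted p = 0.022, 2 of 2 mice). Ncald was lower in the Sst/Nppb gate by -1.94 ± 0.25 (adjusted p = 1.41e-05).

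Of 15 genes of other Kv4 partners, scaffolds and kinases, 9 were tested and 4 differed among the gates (24.5% of all tested genes did). Camk2a, a calcium-dependent kinase that phosphorylates Kv4 subunits, had 999 CPM in the Sst/Nppb gate, 697 CPM in the Mrgpra3 gate, 302 CPM in the Mrgprd gate and 16.8 CPM in the Th gate. It was higher in the Sst/Nppb gate by 2.64 ± 0.20 (adjusted p = 2.34e-08) and in the Mrgpra3 gate by 1.99 ± 0.28 (adjusted p = 0.000386), and lower in the Th gate by -5.48 ± 0.28 (adjusted p = 6.72e-10). The Mrgprd gate passed as higher by 0.74 ± 0.19 (adjusted p = 0.0109), although only 2 of 6 mice had a plain mean above that of the other gates. Mapk3, an ERK kinase gene, was higher in the Mrgprd gate by 0.42 ± 0.13 (adjusted p = 0.0384), and Prkaca, a catalytic subunit of protein kinase A, in the Calca/Tac1 gate by 0.59 ± 0.15 (adjusted p = 0.0107). Dlg1, Dlg4, Mapk3 and Prkaca were each lower in the Sst/Nppb gate, by -1.67, -1.43, -0.61 and -1.03. There 13% of all tested genes were lower. The Kcne genes of ancillary subunits did not pass the filter.

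Genes with the most similar profile were sought among 7022 genes (7023 for Kcnip1) by Pearson's r of log2(CPM + 5) over the 21 means per mouse and gate, as a description only. For Kcnd3 these were Tmem132e (0.96), Lrp11 (0.90) and Rnf112 (0.90), and for Kcnd1 they were Rgs4 (0.93), Kcnip4 (0.91) and Rcan2 (0.90). Kcnip2 was most like Ccdc68 and Phf24 (0.96 each) and Ppp1r1a (0.96), and Kcnip4 most like Cpe (0.96), Rgs4 (0.94) and Ppp1r1a (0.94). For Dpp10 they were Hmgb3 (0.92), Casz1 (0.91) and Rgs4 (0.90). Kcnip1 was most like Htra1 (0.91), Syt2 (0.90) and Cartpt (0.89), Kcnip3 most like Plpp3 (0.84), Eea1 (0.82) and Cplx2 (0.80), and Dpp6 most like Foxn3 (0.87), Sfswap (0.84) and Atp2b1 (0.81). Within the set, Kcnd1 reached 0.91 with Kcnip4, 0.90 with Kcnip2 and 0.90 with Dpp10, and -0.62 with Kcnip1.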

How the data were processed

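Each library is 1 sorted tdTomato-positive cell, prepared by digital RNA sequencing in 4 runs per the labels, and STAR 2.7.3a with the mm10 build is named in the submitters' processing notes; no source used here states the strand of counting. In the third run the titles give another flow cell name than the description and the table, and cells were matched by mouse and cell number. The labels list 400 cells, of which 394 have a column. The authors deposited a signal for every gene in a cell, which is a count multiplied by that cell's factor. Divided by the step of 1 read, a median of 96.5% of the low values came out whole (tolerance 0.1), and recovered counts gave depth, thinning and the count tests. Date-like rows (26) and Rn45s (7.11% of the signal on average) were left out, and values were scaled to CPM (an equal total per cell). Cells with fewer than 500 genes (23, with at most 383 counts) were left out. Each mouse was 1 replicate: means per mouse and gate of at least 3 cells of exactly 1 gate (21 means) were fitted with limma 3.58.1 (R 4.3.3, trended prior) on log2(CPM + 5), mouse as a term, for 9169 genes averaging 10 CPM or more. Calls are at a Benjamini-Hochberg adjusted p under 0.05, and the mice with the same direction compare plain means within a mouse. The fit was tested on simulated data. Limma's F test called 2248 genes; on recovered counts edgeR 4.0.16 called 5794 of 10587 and DESeq2 1.42.0 called 4377 of 13265. Recovered values of all cells were rounded to whole counts, also in 142 columns for which whole reads are not claimed. Positions come from GENCODE vM21. Intervals and limits from a count of 0 (3 counts) cover counting error only. Named genes are the 9 genes, list genes past the threshold (at most 4 per list and gate, or all where 5 or fewer) and the 3 most similar genes each. The genes and lists were chosen with earlier results of these data known. The mice are named in the labels without litter or culture. Alternatives covered gates, pseudocount, filters, averaging, runs, mice, depth and tools. The values of 1 listed gene are not reported here.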

Additional observations from a re-analysis of the deposited data

Results flagged for a closer look

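In 25 groups of 4 or more mice, 10 held a mouse set apart from the others by a gap that is large for the range of the group; chance gives about 1 in 20 for evenly spread values. That rate does not apply to Kcnd2 in its 2 groups and Kcnip1 in the Sst/Nppb gate, where all mice but 1 are at 0. Mouse Control2 accounts for 3 of them, each from 3 or 4 cells. It had 97.01 CPM of Dpp10 in the Sst/Nppb gate (the others 14.7 to 17.5), 129 CPM of Kcnip3 in the same gate (32.2 to 57.1) and 124.9 CPM of Kcnd3 in the Calca/Tac1 gate (28.01 to 39.4). Mouse Control had 655 CPM of Dpp6 in the Sst/Nppb gate (366 to 415 in the others), from 4 cells. Kcnd2 was 4.54 CPM in the Calca/Tac1 gate and 0.236 CPM in the Mrgprd gate of Control, and 0 in the other mice. Mouse Control1 had 268 CPM of Dpp10 in the Mrgprd gate (155 to 194 in the others). Mouse Control6 was low for Kcnd1 in the Calca/Tac1 gate, at 35.4 CPM (55.3 to 65.5). Mouse Red had 4.09 CPM of Kcnip1 in the Sst/Nppb gate, where the others were at 0, and 15.4 CPM of Kcnip2 in the Calca/Tac1 gate (0 to 5.74). The highest single cell of the Calca/Tac1 gate had 427.5 CPM of Kcnip2, the value of Red cell 61 of the Th gate. That cell held 1035 CPM of the further Th-class markers.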

How the results depend on the processing

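The 24 gene and gate pairs past the threshold were recomputed under the alternatives, which gave 617 values. Of these 539 stayed past it, 78 fell short and 0 changed sign. Of 155 recomputed levels 18 moved by more than 1 SD. Runs 2 to 4 alone left 3 gates with a tested contrast, and the Nefh gate of mouse Control was among the other gates. That fit gave 4 pairs higher (10 in the fit of all mice) and 4 lower (14). For the other listed genes it gave 3 higher (13) and 5 lower (17). Thinning every cell to 5000 counts left 5 of the 8 genes different among gates, 4 pairs higher and 8 lower, and 3 higher and 8 lower for the other genes; fewer counts enter that fit. Leaving out each mouse gave 7 to 8 genes different among gates, 4 to 12 pairs higher and 6 to 14 lower, and 3 to 17 higher and 9 to 17 lower for the other genes. Without Blue, 5 pairs were higher and 6 lower; without Red, 4 and 7. Both fits leave the Th and Mrgpra3 gates with 1 mouse. Pairs higher among the other genes, 13 as reported, were 7 with a pseudocount of 1, 8 with means of log values, 27 with at least 5 cells per mean, 22 with weighted means, 27 in run 1 alone, 28 with edgeR and 25 with DESeq2; the cause was not tested. With edgeR 15 member pairs were higher and 13 lower, and with DESeq2 15 and 14. Without the Nefh gate, an alternative chosen after seeing the data, 22 of 24 pairs passed. The 2 that did not were Kcnip1 in the Mrgprd and Sst/Nppb gates. The fit compares gates within mice through its mouse term, and without that term 23 of 24 pairs passed. By the numbers in the titles, no paired analysis was possible because they count cells within a mouse. Depth was lowest in the Sst/Nppb gate, where 0 counts of Kcnd3 allow up to 3.38 CPM. The F test called 2248 of 9169 genes with limma, 5794 of 10587 with edgeR and 4377 of 13265 with DESeq2.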

Other observations

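The 14 cells that passed 2 gates are described by their values alone. Their medians were 184 CPM for Kcnd1, 55.9 CPM for Kcnd3, 11.9 CPM for Kcnip1, 19.5 CPM for Kcnip2, 120.5 CPM for Kcnip3, 229.7 CPM for Kcnip4, 241 CPM for Dpp6 and 37.7 CPM for Dpp10. Dpp6 was detected in all 14 of them and Kcnd2 in 2. The gates met most often at Nefh, which shared 3 cells each with Mrgprd, Th and Calca/Tac1. Of the cells in both the Th and the Calca/Tac1 gate there were 2.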
